A study of Mus musculus with 28 samples.

Results

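Livers of Apoe-/- mice on a high-fat diet were described on their own, with no comparison between genotypes. The 14 libraries titled Apoe-/- were taken from the 28 libraries of the series, and the 2 libraries of each mouse were summed, which gave 7 mice out of 14. These 7 mice are called mouse 1 to mouse 7 here, after the numbers in their titles. All were labelled female and lacked Apoe, the apolipoprotein by which remnant lipoproteins are cleared from plasma, on a C57BL/6 background. They were fed a cholesterol-rich Western-type diet for 12 weeks from 8 weeks of age, and the gene for MIF-2 (Ddt), deleted in the other animals of the series, was intact in them. Because every animal carried the same deletion and ate the same diet, the effect of either cannot be told apart here and was not tested. The questions were which transcripts were most abundant, which differed most between these livers, and which varied together.

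Most messenger RNA of the liver comes from hepatocytes, which make the proteins of blood plasma and the lipoproteins. Hepatocytes synthesize fatty acids and cholesterol through enzymes whose genes are controlled by the transcription factors SREBP-1c and SREBP-2, insulin, carbohydrate and the sterol content of the cell. They also express a large set of cytochrome P450 and sulfotransferase genes that differ between male and female mice, a difference set by the rhythm of growth hormone secretion. Major urinary proteins (MUPs), small carriers of pheromones secreted by the liver, belong to the same hormone-sensitive set.

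RNA was read by prime-seq, a method that reads transcripts at their 3' ends and counts molecules by unique identifiers. Livers had been snap frozen after the mice were perfused with saline. Total counts per mouse were 1467689 to 2433432. Ribosomal RNA (rRNA) genes and genes with the prefix mt- held 27.7 to 49.0% of them and were left out, which left 747972 to 1716056 counts. The rRNA share was lowest in mouse 2, at 15.1%, and highest in mice 3 and 7, at 26.2 and 36.8%, which also had the fewest counts. Values are counts per 1000000 of the remaining counts (CPM) after TMM scaling. By design, the number of tags does not depend on transcript length, so CPM of different genes are set side by side here. How well each 3' end was captured can differ between genes. Whether introns were counted is not given in the sources used here, so an influence of gene length cannot be judged. Across genes, the CPM of pairs of mice correlated with a Spearman's rho of 0.825 to 0.927 (median 0.902, 21 pairs of mice). Genes are not independent replicates.

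The labels were checked first. Apoe transcripts were counted 51 to 176 times per mouse, at 95.7 ± 21.7 CPM (SD, n = 7). A 3' tag can lie outside the deleted part of a gene, so this level tests nothing about the deletion. Ddt was present at 169 ± 38.7 CPM in these mice, and Mif, its relative, at 254 ± 62.8 CPM. Xist was counted 329 to 647 times and 4 Y-linked genes together at most 2 times per mouse. The 7 hepatocyte markers summed to 46672 to 84563 CPM. Neutrophil, pancreatic acinar and skeletal muscle lists each had 0 members at 20 CPM or more, with sums of 25.2 to 45.5, 17.2 to 41.0 and 47.3 to 81.5 CPM.

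At least 1 count was found for 33032 genes, 6341 reached a mean of 20 CPM, 654 reached 200 CPM and 110 reached 1000 CPM. Plasma proteins led the ranking. Albumin (Alb), the main carrier protein of plasma, ranked first at 36295 ± 7994 CPM and was first or second in every mouse. The high-density lipoprotein apolipoproteins Apoa2 (18541 ± 3919 CPM, rank 3) and Apoa1 (8173 ± 2021 CPM, rank 9) and the lipase-regulating apolipoproteins Apoc1 (13816 ± 3344 CPM, rank 5) and Apoc3 (5415 ± 1013 CPM, rank 15) were all among the 25 most abundant genes. The iron carrier transferrin (Trf) reached 10473 ± 2255 CPM and the fatty acid-binding protein Fabp1 reached 6862 ± 2752 CPM. Haptoglobin (Hp), the vitamin D-binding protein Gc, complement C3, transthyretin (Ttr), hemopexin (Hpx) and the protease inhibitors Serpina1a and Serpina1b lay between 3977 and 6659 CPM. MUP genes took 10 of the first 60 ranks, led by Mup13 (6947 ± 2141 CPM), Mup19 (5401 ± 2167 CPM) and Mup15 (4269 ± 1814 CPM). Near-identical MUP genes can share reads, so the split between them is uncertain. The remaining named genes of the first 25 were the nuclear RNA Malat1, the ferritin light chain Ftl1, and Scd1, Camk1d and Cdk8, described next.

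Scd1, the desaturase that makes oleic acid from stearic acid, was the most variable of these abundant genes. It ranked 11th in mouse 2, at 9769 CPM, and 100th in mouse 5, at 1230 CPM, with a mean of 4287 ± 2917 CPM.

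**Figure D1:**
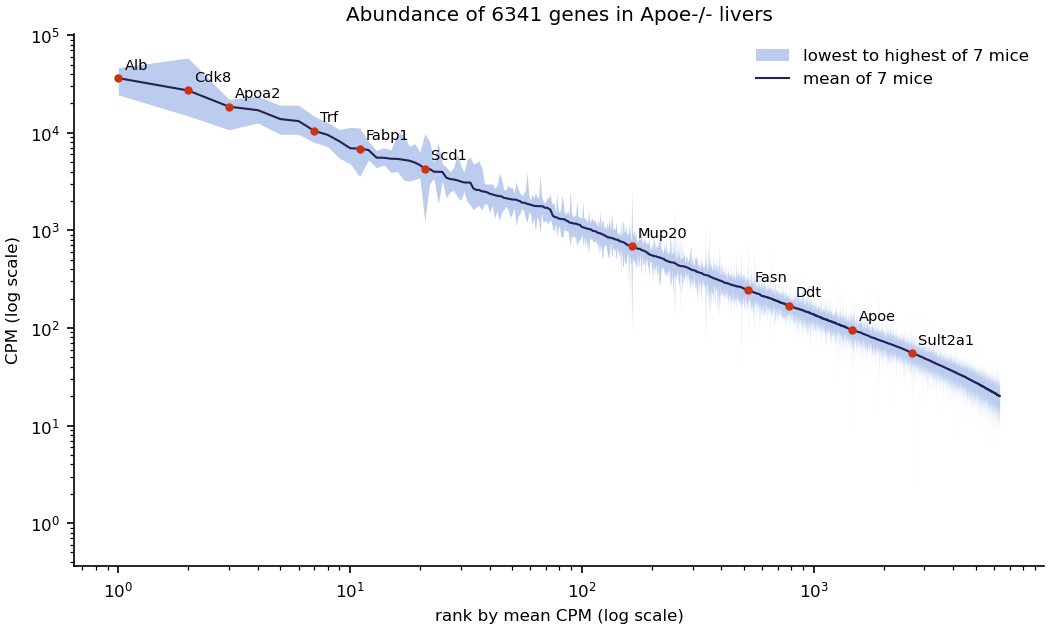
Mean CPM over 7 mice (line, log scale) of the 6341 genes with at least 20 CPM against their rank (log scale), with the lowest to the highest mouse as a band and single genes as points. The band is wide at Scd1 (1230 to 9769 CPM) and Mup20 (89.1 to 2657 CPM).

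Several highly ranked genes are not typical liver messages. Cdk8, a kinase of the Mediator complex, ranked second at 27139 ± 14682 CPM. Its value was 58455 CPM in mouse 6 and 14906 to 27354 CPM in the other mice, so the mean rests in part on mouse 6. Camk1d (4961 ± 1495 CPM, rank 19), Mir6236 (rank 27), Lars2 (rank 28), Jarid2 (rank 40) and Gphn (rank 41) also stood high for genes with no special role in liver. Whether the reads counted for these genes and for Cdk8 came from them or from rRNA was not tested. Camk1d and Gphn followed the rRNA share most closely over the 7 mice (Spearman's rho 0.96 each), Lars2 had a rho of 0.82 and Cdk8 of 0.43, and Alb ran against it (-0.93). The unnamed gene models at ranks 4, 6 and 8, with means of 17039, 13162 and 9520 CPM, are pseudogenes side by side on chromosome 1. Every 31-base word of their transcripts also occurs in mt-Co3, mt-Atp6 and mt-Co2, respectively. The mitochondrial genes themselves held 1450, 2118 and 487 counts against 148720, 115851 and 83880 for the nuclear copies. Reads of the mitochondrial genes and of their nuclear copies cannot be told apart there, and they stayed among the counts used here.

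Differences between livers were tested with mouse as a factor over the 14 libraries, so that the 2 libraries of a mouse gave the technical spread. By edgeR's quasi-likelihood F test, 1844 of 6341 genes (29.1%) differed between mice at a Benjamini-Hochberg adjusted p below 0.05. The SD of log2 CPM over the 7 mice was at least 0.5 for 388 of the 1844 genes and at least 1 for 26. The median SD was 0.38 for genes that differed, 0.26 for those that did not and 0.28 for all. Much of the count came from mouse 2, which was highest in 628 of the 1844 genes (34.1%) and lowest in 347, while mice 3 and 7 were lowest in 498 and 513. Without mouse 2, 1207 of 6365 genes differed (19.0%). Without mice 3 and 7, 1187 of 6149 did (19.3%). A DESeq2 likelihood ratio test on all 7 mice found 819 of 6341 (12.9%), all of them among the 1844.

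The most variable genes included sex-biased genes, MUPs, enzymes of lipid synthesis and haemoglobin. Of the 40 genes with the largest SD among those that differed, 37 were named genes, and mouse 2 was the highest in 21 of the 40 and the lowest in 10. Without mouse 2, 26 of the 40 stayed among the 40 most variable. When the ranking was made from the first libraries and from the duplicate libraries apart, the lists of 40 shared 26 genes.

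**Figure D2:**
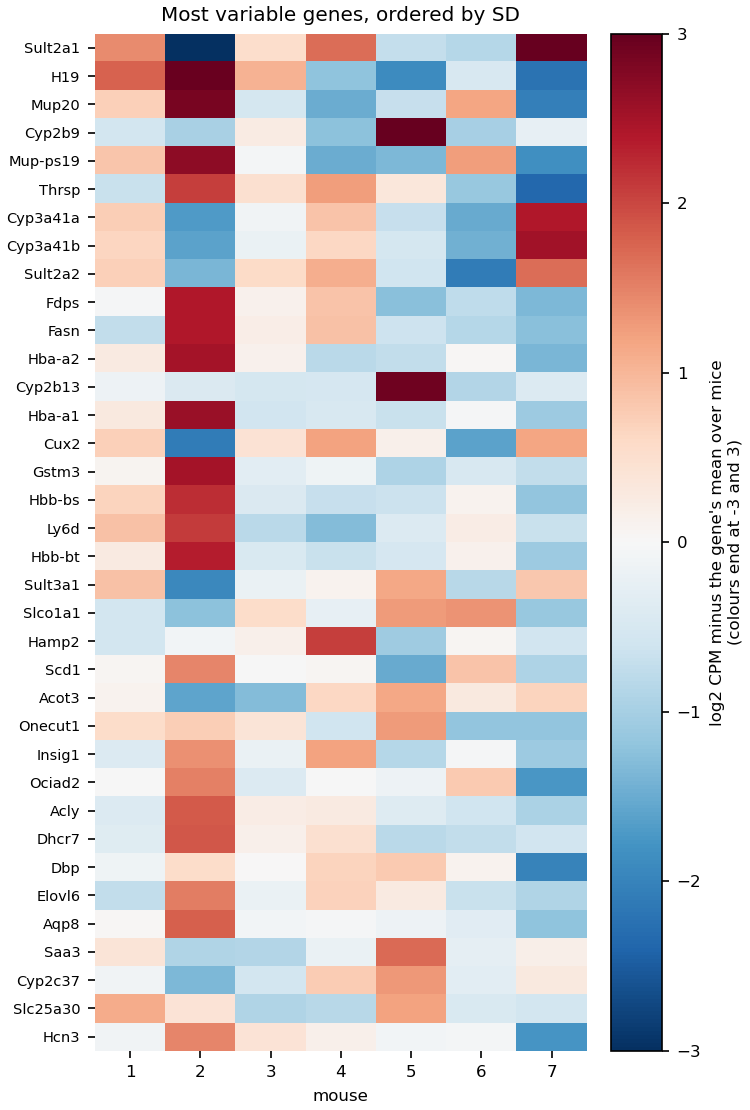
Log2 CPM minus the gene's mean over 7 mice for the named genes with the largest SD, leaving out 1 (rows, ordered by SD) in each mouse (columns). Mouse 2 stands out in both directions, mouse 7 for Sult2a1 and the Cyp3a41 genes, and mouse 5 for Cyp2b9 and Cyp2b13.

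Genes with female-biased expression headed the list. Sult2a1, a sulfotransferase of steroids and bile acids (chr7:13796246-13837409, mm10), was at 60.9, 0.644, 32.8, 72.6, 13.9, 12.7 and 195 CPM in mice 1 to 7 (SD of log2 CPM 2.08, edgeR adjusted p = 7.72e-20). In mouse 2 this was 1 count in both libraries together, below the 3 counts that a count of 0 would allow. Cyp3a41a and Cyp3a41b, female-specific cytochromes P450 that lie near each other on chromosome 5, followed the same order apart from an exchange of mice 1 and 4 for Cyp3a41b, from 68.2 and 22.5 CPM in mouse 2 to 1180 and 395 CPM in mouse 7. The neighbouring sulfotransferase Sult2a2 ranged from 11.8 CPM in mouse 6 to 161 CPM in mouse 7, with a median of 75.1 CPM. Cux2, a transcription factor of the female pattern, was at 3.86 and 5.43 CPM in mice 2 and 6 and at 18.3 to 38.1 CPM in the others. Mice 2 and 6 were thus the lowest for Sult2a2 and Cux2, and mouse 7 was the highest for the Sult2a and Cyp3a41 genes.

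Other female-biased genes had a different order of mice. Cyp2b9 was at 169 CPM in mouse 5 and at 5.32 to 14.8 CPM in the other 6 mice, and its neighbour Cyp2b13 at 151 CPM against 10.9 to 17.9 CPM. The excess in mouse 5 was present in both of its libraries (156 and 188 CPM for Cyp2b9). Of the 21 female-biased genes with at least 20 CPM, 20 differed between mice (95.2%). Of all genes tested 29.1% differed, and of those with at least 200 CPM 84.9%. The median SD of the list was 0.98, against 0.28 for all genes tested. The pairs of this list had a median rho of 0.32, and 0.14 without mouse 2, so the list did not move as a block.

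Mup20, the MUP known as darcin, which is characteristic of males, was the most variable gene above 600 CPM (685 ± 911 CPM, SD of log2 CPM 1.69, edgeR adjusted p = 4.37e-38). It was at 2657 CPM in mouse 2, 831 CPM in mouse 6, 607 CPM in mouse 1 and 89.1 to 253 CPM in the other 4 mice. The MUP pseudogene Mup-ps19 had the same order at its top, from 269 CPM in mouse 2 to 11.7 CPM in mouse 7. Every other MUP gene tested was highest in mouse 6. The summed level of the MUP list was 68753 CPM in mouse 6 and 27345 to 40869 CPM in the others, and the pairs of its 16 tested genes had a median rho of 0.75 (0.77 without mouse 2). Mup11 was at 3952 CPM in mouse 6 and 1203 to 1793 CPM in the others, Mup9 at 6071 against 2217 to 3924 CPM, and Mup7 at 5613 against 1820 to 3487 CPM.

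**Figure D3:**
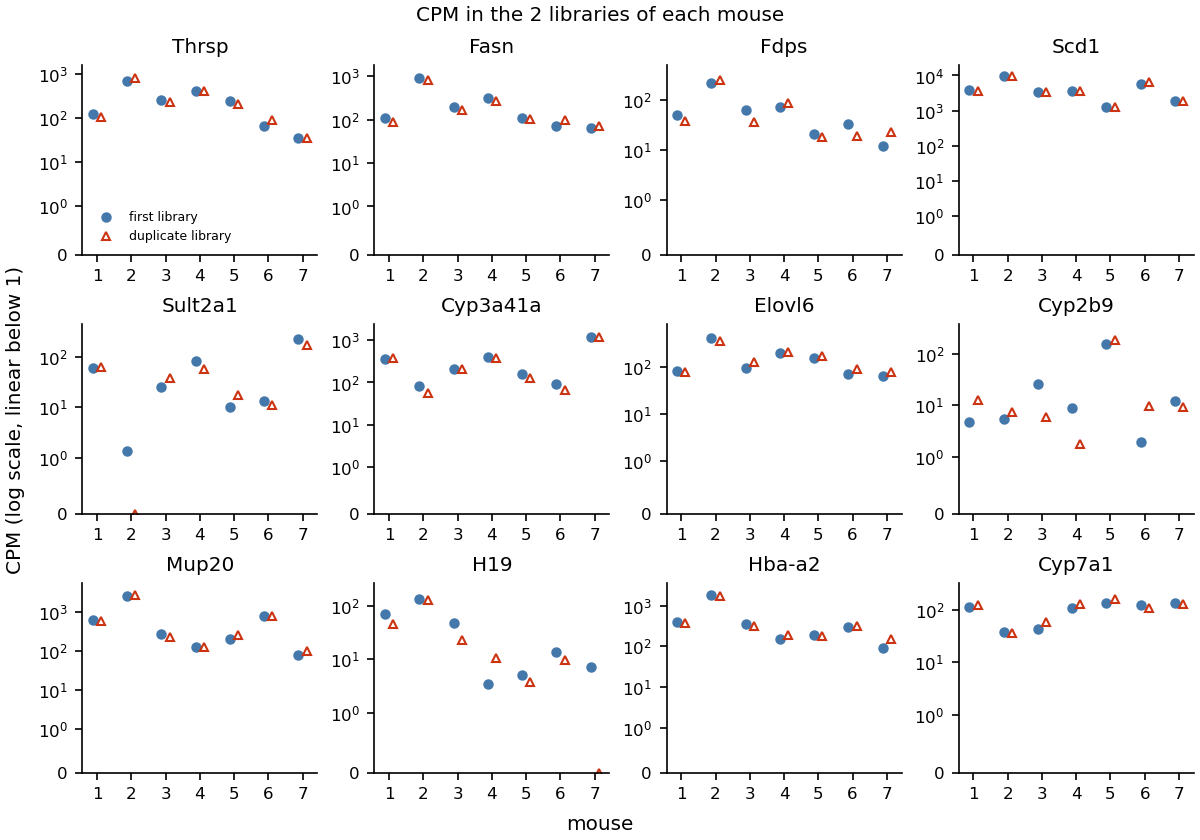
CPM of 12 genes (log scale, linear below 1) in the first library (circles) and the duplicate library (triangles) of each of the 7 mice. For most of these genes the 2 libraries of a mouse lie close together beside the distance between mice, and Sult2a1 in mouse 2 and H19 in mouse 7 each have a library at 0.

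Genes of fatty acid and cholesterol synthesis varied widely and together. Thrsp (Spot 14), a regulator of lipogenesis, was at 109, 733, 244, 416, 221, 79.6 and 34.0 CPM in mice 1 to 7 (SD of log2 CPM 1.48, edgeR adjusted p = 2.07e-28). Fasn, fatty acid synthase, was at 96.0, 857, 184, 298, 105, 88.6 and 68.0 CPM (SD 1.27, edgeR adjusted p = 5.00e-30), and its SD was 0.78 without mouse 2. Mouse 2 was the highest and mouse 7 the lowest for both, and Fasn in mouse 2 was well above the 298 CPM of mouse 4, the next. Fdps, which makes farnesyl pyrophosphate for sterols, ranged from 17.6 to 238 CPM with a median of 43.7 CPM. Acly, which supplies acetyl-CoA, Acacb, a carboxylase that makes malonyl-CoA, Elovl6, an elongase, Gpam, the first enzyme of triglyceride synthesis, and Fads1, a desaturase, were all highest in mouse 2, at 128 to 384 CPM. All 18 lipogenesis genes tested differed between mice, with a median SD of 0.67, and 11 of 14 genes of cholesterol synthesis did (78.6%), with a median SD of 0.53. Of all genes tested 29.1% differed, and of those with at least 200 CPM 84.9%, and the median SD of all genes was 0.28. The summed level was 15630 CPM in mouse 2 and 3235 to 8150 CPM in the others for lipogenesis, of which Scd1 alone was 9769 CPM in mouse 2 and 1230 CPM in mouse 5, and 2357 against 744 to 1593 CPM for cholesterol synthesis.

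The promoters of the sterol genes are shown because these genes varied together. Of the 14 cholesterol synthesis genes tested, 8 had a promoter among the RefSeq sequences used (GRCm38.p6, 250 bases before to 50 after the start). The sterol regulatory element, searched as TCACNCCAC on both strands, was found in 1 of the 8, Hmgcs1, and in 1.44% of all 27025 genes. The E-box CACGTG was found in Sc5d, Dhcr7 and Insig1 (3 of 8) and in 8.09% of all genes. The CCAAT box, added after the data had been seen, was found in 7 of 8 and in 41.1% of all genes. The D-box TTATGNAA was in 0 of 8 and in 3.99% of all genes. A match is a description of letters in this window and not a measured binding site, and a missing match says nothing about the factor. The 250 bases before the start of Hmgcs1 (HMG-CoA synthase, chr13:119690101-119690350, + strand), of Insig1 (the sterol sensor that retains SREBP, chr5:28071162-28071411, + strand) and of Cyp51 (lanosterol demethylase, chr5:4104698-4104947, - strand) follow 5' to 3'. Capitals mark the element in Hmgcs1 (TCACCCCAC), the E-box in Insig1 and CCAAT boxes, which read ATTGG where they lie on the other strand.
Hmgcs1: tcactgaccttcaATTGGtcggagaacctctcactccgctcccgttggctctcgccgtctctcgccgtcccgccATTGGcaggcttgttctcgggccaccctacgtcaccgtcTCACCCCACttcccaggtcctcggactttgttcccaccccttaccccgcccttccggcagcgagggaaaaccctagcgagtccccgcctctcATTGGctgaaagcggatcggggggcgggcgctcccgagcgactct
Insig1: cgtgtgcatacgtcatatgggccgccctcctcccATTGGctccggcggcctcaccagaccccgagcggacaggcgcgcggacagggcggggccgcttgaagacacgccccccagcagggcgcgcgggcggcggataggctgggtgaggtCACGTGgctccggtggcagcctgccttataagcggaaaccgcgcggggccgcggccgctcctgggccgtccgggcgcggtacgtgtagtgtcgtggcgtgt
Cyp51: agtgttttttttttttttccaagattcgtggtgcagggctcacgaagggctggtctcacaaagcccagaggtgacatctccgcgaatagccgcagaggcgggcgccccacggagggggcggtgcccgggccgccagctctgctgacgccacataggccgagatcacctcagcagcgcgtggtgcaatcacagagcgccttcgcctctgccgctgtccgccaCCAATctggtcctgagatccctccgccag

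Hmgcs1 was at 66.8 to 268 CPM, Insig1 at 29.3 to 162 CPM and Cyp51 at 8.20 to 57.3 CPM, each lowest in mouse 7 and highest in mouse 2. Insig1 was also high in mouse 4, at 145 CPM, where Hmgcs1 was at 114 CPM. The 8 tested clock genes included 7 with a promoter, of which Tef and Tspan4 held the E-box and 0 the D-box. Dbp, an output of the circadian clock, was at 10.5 CPM in mouse 7 and 38.7 to 72.5 CPM in the others, and Nr1d1 at 23.4 CPM in mouse 7 and 30.7 to 71.8 CPM in the others. In mouse 7, which had the highest rRNA share and the fewest counts, Dbp rested on 9 counts. The mean centred log2 CPM of the evening-phase clock list correlated with the rRNA share at a rho of -0.86. Its pairs of genes had a median rho of 0.32, and 0.03 without mouse 7. The hour at which each mouse was killed is not given in the sources used here, and the cause of these differences was not tested.

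Haemoglobin and several unrelated genes were highest in mouse 2. H19, an imprinted RNA of fetal liver, was at 129 CPM in mouse 2, 55.9 CPM in mouse 1, 33.9 CPM in mouse 3 and 3.52 to 11.8 CPM in the other 4. The haemoglobin chains Hba-a1, Hba-a2, Hbb-bs and Hbb-bt were at 908, 1734, 669 and 178 CPM in mouse 2. The medians of the 7 mice for these chains were 108, 316, 107 and 25.4 CPM. Summed red blood cell genes were 3538 CPM in mouse 2 and 278 to 854 CPM in the others. Osteopontin (Spp1), made by macrophages and bile duct cells, was at 400.4 CPM in mouse 2 and 64.4 to 159 CPM in the others. Apoa4, an apolipoprotein that rises with fat load, was at 2599 CPM in mouse 2 and 690.2 to 1477 CPM in the others. Some markers of non-parenchymal cells were also highest there, and others were not. MHC class II genes summed to 1594 CPM in mouse 2 and 634 to 999.7 CPM in the others, stellate cell and collagen genes to 1284 against 709 to 953 CPM, and recruited macrophage markers to 1251 against 527 to 773 CPM. Sinusoidal endothelial markers summed to 289 CPM in mouse 2 and were highest in mouse 5 (383 CPM), lymphocyte markers were at 71.4 CPM in mouse 2 and 76.3 CPM in mouse 5, and neutrophil markers were highest in mouse 3. Fewer cells of a type and less RNA per cell cannot be told apart in whole tissue, and the part of blood or of these cells in the values of mouse 2 was not tested. Mouse 2 also had the lowest rRNA share (15.1%), and the part of this share was not tested either.

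Which genes varied together was described by Spearman's rho over the 7 mice. With 7 mice, high values are common. Over all 20100970 pairs of tested genes the median rho was 0.07, with 3.93% of pairs at 0.8 or more and 2.12% at -0.8 or less. With 1 gene taken from the first libraries and the other from the duplicates, and both directions averaged, 0.662% of pairs reached 0.8. Single libraries have fewer counts and averaging narrows the spread, so 0.662% and 3.93% are not like for like. Values between first and duplicate libraries below are such averages, except for the pairs tested one by one, which used 1 direction. Average-linkage clustering of the 150 most variable genes at a mean rho of 0.7 gave 10 clusters of at least 5 genes, which held 102 genes. These genes were chosen for their spread and clustered on the same values, so the clusters were not tested. Many rho values are tied with 7 mice. Taking the genes in reversed order gave 11 clusters and kept 82.3% of the gene pairs that shared a cluster.

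The lipogenic cluster held Thrsp, Fdps, Fasn, Gstm3, Acly, Dhcr7, Cyp51, Tlcd1, Nid1, Acacb, Gpam, Rgs16, Fads1 and Hmgcs1 and 2 more genes, and all 16 stayed together in the reversed order. Its score, the mean centred log2 CPM, was 1.58 in mouse 2, 0.45 in mouse 4, 0.18 in mouse 3 and -0.11 to -0.95 in the others. Thrsp ranked the 7 mice exactly as Fasn and Acly did (rho 1.00, and 0.96 and 0.93 between first and duplicate libraries). A rho of 0.96 or more with Thrsp was reached by 28 genes. Elovl6 and Pgd, which makes NADPH, formed a smaller cluster with Hcn3, Drg2, Cdk2ap2 and Edem2, whose score correlated with that of the lipogenic cluster at a rho of 0.89. Scd1 and Fasn had a rho of 0.43, which ran from 0.09 without mouse 2 to 0.71 without mouse 6, and an r of 0.63. In the single mice, mouse 6 was next to the top for Scd1 (6361 CPM) and next to the bottom for Fasn (88.6 CPM). Scd1 clustered with Insig1, Ociad2, Lgals1, Mrpl4, Ykt6, Ndufb4c and the glutathione transferases Gstm1, Gstm2 and Gsta2, a cluster whose score correlated with the rRNA share at -0.75. For the lipogenic cluster this value was -0.57.

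The H19 and Mup20 cluster also held Mup-ps19, the haemoglobin chains, Spp1, Serpina12, Mfge8, Apoa4 and Atxn2l. Its score was 1.93 in mouse 2 and -1.21 in mouse 7. Without mouse 2 its pairs had a median rho of 0.77, as had those of the lipogenic cluster. The clusters were formed on the same mice, so this value does not test them. The median span of its genes was 2.76 kb, and its score correlated with the rRNA share at -0.39.

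A further cluster held the female-biased Sult2a1, Sult2a2, Cyp3a41a, Cyp3a41b and Cux2 together with Ntrk3, Col19a1 and Skint6, and its score ran from -1.53 in mouse 2 to 1.48 in mouse 7. Sult2a1 ranked the mice as Cyp3a41a and Galnt2l did (rho 1.00, and 0.95 and 0.96 between first and duplicate libraries). The score ran against that of the lipogenic cluster only weakly (rho -0.32) and against that of the cluster of Slc25a30 and Ftl1 strongly (-0.86). The median span of its genes was 194 kb, with 5 of 9 at 100 kb or more, and its score correlated with the rRNA share at 0.68 and with the counts left per mouse at -0.68. Sult3a1, a sulfotransferase, was lowest in mouse 2 (20.6 CPM) and highest in mouse 5 (176 CPM), and so was the cytochrome P450 Cyp2c69 (100.4 and 509 CPM). Saa3, an acute phase protein, was at 228 CPM in mouse 5 and 38.0 to 92.4 CPM in the others.

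Cyp7a1, the rate-limiting enzyme of bile acid synthesis, shared a cluster with Acot3, Cyp2c37, Slc22a26, Hsd17b6, Igfbp2, Ang and Serpinb1a. Cyp7a1 was at 36.7 CPM in mouse 2, 51.9 CPM in mouse 3 and 117 to 146 CPM in the others (SD of log2 CPM 0.75, edgeR adjusted p = 1.66e-11). The score was -1.26 in mouse 2, -0.60 in mouse 3 and 0.95 in mouse 5. The genes of cholesterol synthesis and Cyp7a1 thus had opposite extremes in mouse 2. The score of the Cyp7a1 cluster correlated with that of the H19 and Mup20 cluster at -0.79 and with that of the lipogenic cluster at -0.46. Cyp8b1, the enzyme that makes cholic acid, had a rho of 0.14 with Cyp7a1 (exact permutation p = 0.783), which was 0.83 without mouse 2 (adjusted p = 0.257, exact permutation test). Cyp8b1 was highest in mouse 2, at 223 CPM against 70.9 to 147 CPM.

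**Figure D4:**
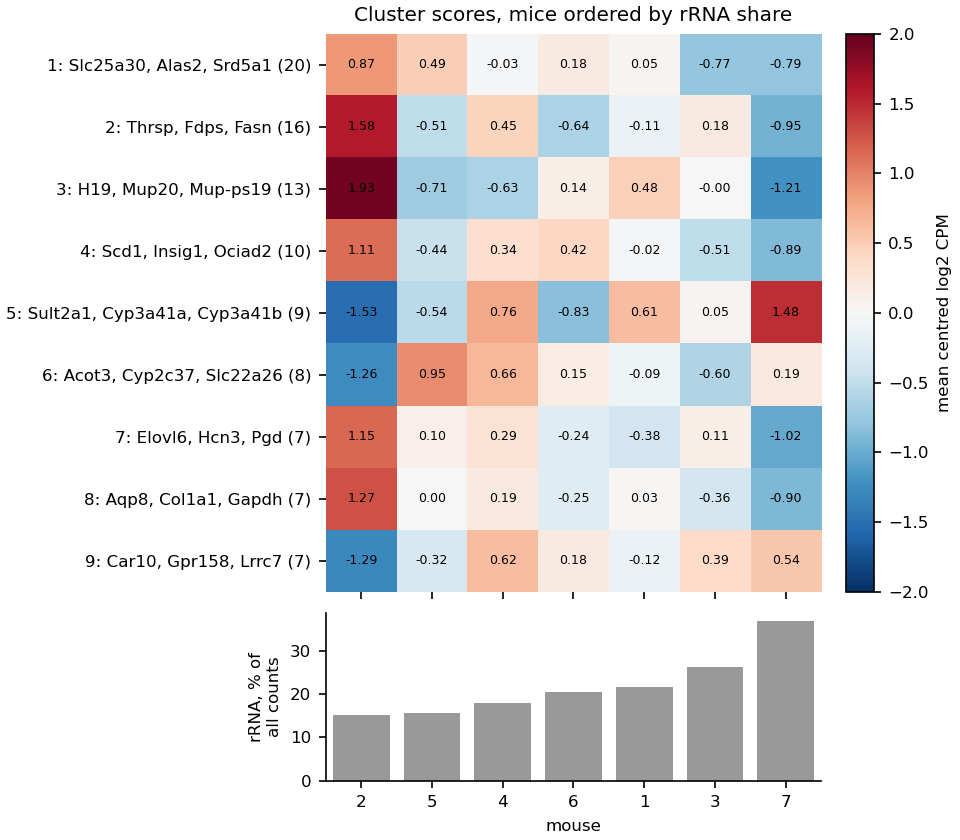
Mean centred log2 CPM of the gene clusters described (rows, first 3 named genes and number of genes) in the 7 mice, ordered by the share of rRNA genes in all counts (bars, percent). The cluster of Slc25a30 falls from 0.87 in mouse 2, with the lowest rRNA share, to -0.79 in mouse 7, with the highest.

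The largest cluster moved with library properties. It held Slc25a30, Alas2, Srd5a1, Slc39a4, Aprt, S100a11, Gsta4, Mrpl36, Ndufs5, Ftl1, Dnajc19 and Txn1, 3 more named genes and 5 unnamed models. The genomic span of its genes had a median of 2.97 kb, against 29.5 kb for all genes tested, although Srd5a1, Slc25a30, Gsta4 and Dnajc19 spanned 25.3 to 38.0 kb. Ftl1, the ferritin light chain, was at 1866 CPM in mouse 3, 2393 CPM in mouse 7 and 7961 CPM in mouse 2. The score correlated with the rRNA share at -0.89 and with the counts left per mouse at 0.93. In the reversed order, 15 of the 20 genes stayed together. Car10, Gpr158, Lrrc7, Magi2, Slit3, Cntnap5c and Csmd2, long genes of which most are known from neurons, formed the opposite case. All 7 spanned at least 100 kb, as did 19.5% of all genes tested, and their median was 579.8 kb. The score was -1.29 in mouse 2 and 0.62 in mouse 4, and correlated with the counts left at -0.86. The cluster of Aqp8, Col1a1, Gapdh, Acsl5, Mtln and Ifi27l2b was highest in mouse 2 (1.27) and lowest in mouse 7 (-0.90), with a rho of -0.82 with the rRNA share. Gapdh, a gene often used as a reference, was at 73.8 to 344 CPM (168 CPM on average), an SD of log2 CPM of 0.67.

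The main axis of variation followed the rRNA share. The first principal component of log2 CPM held 40.2% of the variance and put the 7 mice in exactly the reverse order of their rRNA share, from 26.35 in mouse 2 to -18.35 in mouse 3 and -23.83 in mouse 7. The second held 17.8% and had a rho of 0.21 with it. The third held 12.9% and had a rho of -0.88 with the share of mt- genes. The score of the hepatocyte markers had the same exactly reversed order, and those of cytosolic ribosomal proteins and nuclear-encoded respiratory chain genes correlated with the rRNA share at -0.96 each. Other lists also ran strongly against it, among them endoplasmic reticulum stress (-0.96), MHC class II (-0.93) and Kupffer cell markers (-0.90). Apolipoproteins and evening-phase clock genes were at -0.86 each, and recruited macrophage markers and glutathione genes at -0.75 each. The score of the lipogenesis list correlated with the rRNA share at -0.57, that of cholesterol synthesis at -0.50, that of red blood cell genes at -0.43 and that of female-biased genes at 0.43. Values nearer 0 included pericentral genes (-0.18) and the fatty acid oxidation and PPAR-alpha list (-0.11). The part of the rRNA share in these results was not tested.

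Of the 29 gene lists with at least 3 tested members, 12 had a median rho of 0.5 or more. Red blood cell genes were the highest (0.86, 5 genes), followed by cytosolic ribosomal proteins (0.82, 41 genes), hepatocyte markers (0.79, 7 genes), MHC class II (0.77, 5 genes), MUPs, lipogenesis and cholesterol synthesis (0.75 each), the respiratory chain (0.71, 39 genes), nuclear-retained transcripts (0.61), recruited macrophage markers (0.61), Kupffer cell markers (0.52) and glutathione genes (0.50). With library totals alone in place of TMM scaling, 7 lists did. Hepatocyte markers then had a median of 0.46, MHC class II 0.39, recruited macrophage markers 0.36, glutathione genes 0.36 and Kupffer cell markers 0.16. The 7 lists were red blood cell genes (0.93), nuclear-retained transcripts (0.79), lipogenesis (0.75), cholesterol synthesis (0.71), MUPs (0.61), ribosomal proteins (0.57) and the respiratory chain (0.54). Without mice 3 and 7, the respiratory chain had a median of 0.30, glutathione genes 0.30, nuclear-retained transcripts 0.40 and Kupffer cell markers 0.25. Without mouse 2, lipogenesis and cholesterol synthesis kept a median of 0.60 each, whereas Kupffer cell markers fell to 0.31 and collagen genes from 0.36 to 0.09. The median SD of the ribosomal proteins was 0.31, that of the respiratory chain 0.30 and that of the hepatocyte markers 0.29, close to the 0.28 of all genes tested. For gluconeogenesis (0.14) and sinusoidal endothelial markers (0.16) the median rho was close to the 0.07 of all pairs.

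**Figure D5:**
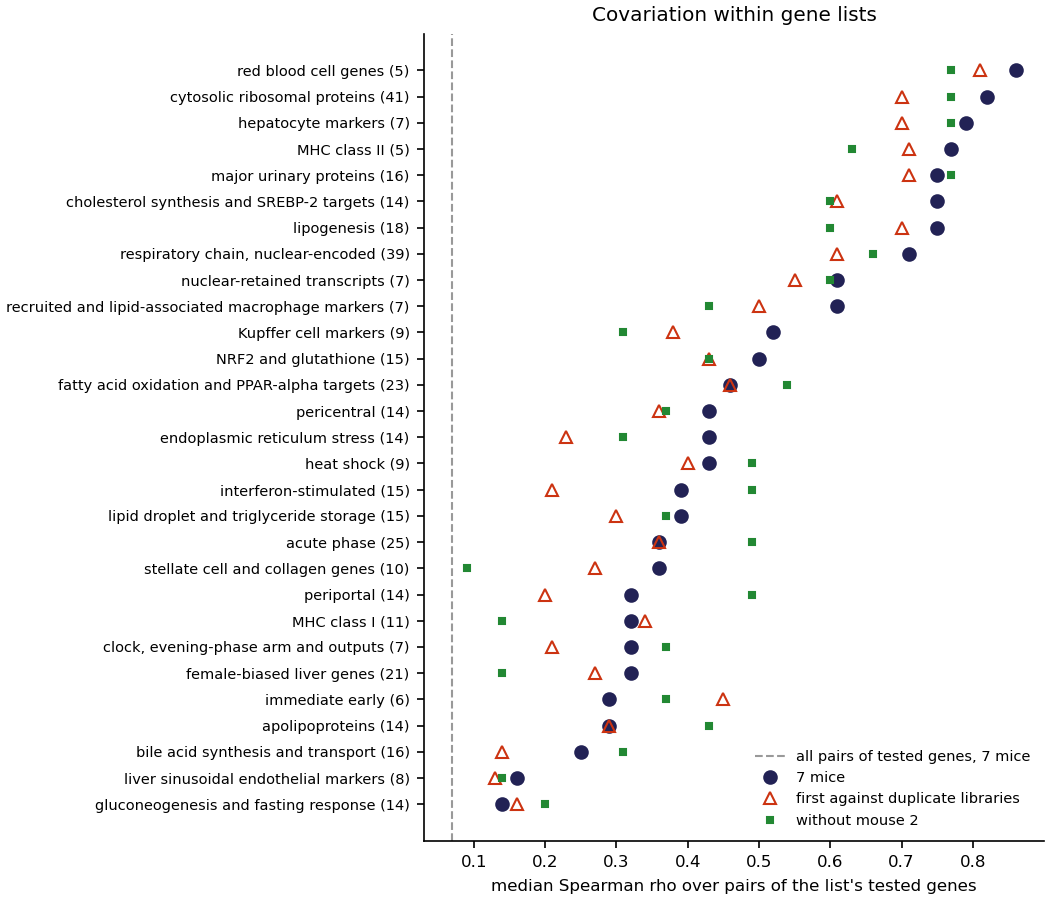
Median Spearman's rho over pairs of genes within each of 29 lists (number of tested genes in brackets), over 7 mice (circles), between first and duplicate libraries (triangles) and without mouse 2 (squares), with the median of all gene pairs as a dashed line at 0.07. Red blood cell genes (0.86) and ribosomal proteins (0.82) lie at the top and gluconeogenesis (0.14) at the bottom.

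Counts of genes that differed in the other lists have to be read against 29.1% of all genes tested and 84.9% of those with at least 200 CPM. In the list of gluconeogenesis and fasting response, 9 of 14 genes differed (64.3%). G6pc, the last enzyme of glucose release, was at 71.8 to 254 CPM, with mice 5 and 7 (211 CPM) highest, and Igfbp1 at 15.4 to 57.4 CPM. Of the 23 genes in the list of fatty acid oxidation and PPAR-alpha targets, 17 differed (73.9%). The omega-hydroxylases Cyp4a10 and Cyp4a14 were highest in mouse 5, at 1242 and 879 CPM, and lowest in mouse 3, at 440.2 and 339.7 CPM. Acot1, an acyl-CoA thioesterase, was at 146 CPM in mouse 7 and 38.0 to 105 CPM in the others. In the acute phase list, 23 of 25 genes differed, with a median SD of 0.29 that is close to the 0.28 of all genes. Hepcidin (Hamp), the hormone of iron balance, ranged from 202 to 826 CPM. Its relative Hamp2 was at 1108 CPM in mouse 4 and 126 to 290.0 CPM in the others, so the 2 hepcidin genes had different leading mice. Slco1a1, a bile acid and steroid transporter, was at 68.7 and 72.3 CPM in mice 5 and 6 and 12.2 to 41.3 CPM in the others. Onecut1, a hepatocyte transcription factor, ran from 19.9 CPM in mice 6 and 7 to 109 CPM in mouse 5. Fitm1, a lipid droplet protein, was at 24.8 to 122 CPM, highest in mouse 2, and Ly6d at 16.8 to 175 CPM. Jun, an immediate early gene, was at 23.5 CPM in mouse 6 and 105 CPM in mouse 5. Of the periportal genes, 12 of 14 differed, and of the pericentral genes, 12 of 14 (85.7% each), near the share among abundant genes. Oat, a pericentral aminotransferase, was at 271 CPM in mouse 3 and 574 to 976 CPM in the others.

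Pairs of genes that share a regulator, or that mark contrasting cells, zones, sexes or metabolic states, were tested one by one. Of 30 pairs, 22 had both genes at 20 CPM or more. By an exact permutation test over all 5040 orders of the 7 mice (two-sided, smallest p 3.97e-04), 8 pairs had an unadjusted p below 0.05 for Spearman's rho, and 0 passed after Benjamini-Hochberg adjustment over the 22 (smallest adjusted p = 0.0902). For Pearson's r on log2 CPM, 6 passed. Cyp4a10 and Cyp4a14 had a rho of 0.89 (exact permutation p = 0.0123, adjusted 0.0902) and an r of 0.90 (p = 0.00218, adjusted 0.024), and r was 0.91 without the 2 mice farthest from the median of Cyp4a10. For Cyp4a14 and Vnn1, both targets of PPAR-alpha, rho was 0.89 (exact permutation p = 0.0123) and r 0.84 (adjusted p = 0.0273), and 0.66 without 2 mice. For Hba-a1 and Hbb-bs, rho was 0.89 (exact permutation p = 0.0123) and r 0.98 (adjusted p = 0.0175), and 0.95 without 2 mice.

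For Fasn and Hmgcs1, enzymes of fatty acid and sterol synthesis, rho was 0.86 (exact permutation p = 0.0238) and r 0.92 (adjusted p = 0.0393), and 0.91 without mice 2 and 4. The metallothioneins Mt1 and Mt2 had a rho of 0.82 (exact permutation p = 0.0341) and an r of 0.92 (adjusted p = 0.0273), and 0.72 without 2 mice. The pericentral genes Cyp2e1 and Oat had a rho of 0.79 (exact permutation p = 0.048) and an r of 0.86 (adjusted p = 0.0451), and 0.67 without 2 mice. Cd74 with H2-Ab1 and Cd74 with Cd5l each had a rho of 0.79 (exact permutation p = 0.048) and did not pass by r (adjusted p = 0.0906 each). Cyp2b9 and Cyp2b13 had an r of 0.96 that fell to 0.50 without mice 3 and 5, so the relation rests largely on mouse 5. Likewise, Col1a1 and Col3a1 had an r of 0.82, and -0.55 without mice 2 and 7. The lowest rho were those of Orm2 with Mt1 and of Clec4f with Stab2, at -0.43 each (exact permutation p = 0.354).

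The steadiest genes were ranked as well. The 10 genes with the smallest SD of log2 CPM among the 654 with at least 200 CPM were Rbm39, Rpsa, Iqgap2, Apon, Nfib, Hspa5, Rps12, Chd4, Stard10 and Eif4g2. Rbm39, a splicing factor, was at 249 ± 15.2 CPM and ranged from 231 to 276 CPM. Stard10, a lipid transfer protein of hepatocytes, was the most abundant of them at 1360 ± 106 CPM (1185 to 1484 CPM). Hspa5, the chaperone BiP of the endoplasmic reticulum, lay between 387 and 476 CPM. These were chosen for their small spread, which is therefore a description, and Iqgap2 was even so among the genes that differed between mice (edgeR adjusted p = 0.031). Of all 654 genes at this level, 555 (84.9%) differed between mice, against 29.1% of all genes tested, and their counts were deeper.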

How the data were processed

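Liver RNA of 7 Apoe-/- mice was measured in 14 prime-seq libraries, 2 per mouse. The authors made the deposited values with zUMIs as whole-number counts of unique molecular identifiers for 36072 gene symbols, without normalization, and the submitters' processing notes name build mm10. Aligner settings, annotation release, use of strand and counting of introns are not given in the sources used here, so overlapping and antisense genes cannot be told apart. The 14 libraries of the other genotype were not used. RNA integrity, a covariate in the study's methods, is not in the labels, and no fit here adjusted for it.

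Gene types and positions came from GENCODE M21 (mm10), matched by symbol for 34829 of 36072. From the counts, 48 rRNA genes and 36 mt- genes were left out, the libraries of each mouse were summed, and CPM were computed with TMM factors (edgeR 4.0.16, R 4.3.3) and log2 CPM with a prior count of 2. Genes with a mean of at least 20 CPM were tested between mice on the 14 libraries with edgeR's quasi-likelihood F test and Benjamini-Hochberg adjustment over 6341 genes. The labels call the second library of a mouse a duplicate without saying whether it started from the same RNA, so this test measures differences between mice beyond the spread between duplicates. In simulated counts of 6341 genes with this design, 36 of 67 genes planted with an SD of 0.3 were found, 54 of 67 at 0.5 and 66 of 66 at 1, with 10 false calls among 6141. Single relations used exact permutation tests (Python 3.11.15, numpy 2.4.6, scipy 1.17.1). Correlations were rounded before clustering, a step added after the data had been seen because of ties. Depth covers counting error only.

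Named genes were the 25 highest by mean CPM, the 40 with the largest SD among genes that differed, the 10 steadiest above 200 CPM, up to 12 members of each cluster of at least 5 genes, the 5 genes closest to a cluster's leading gene (given where they also held between libraries), up to 4 members of each of 38 gene lists and the genes of 30 pairs. Unnamed gene models were counted, not named, and 1 named gene with its cluster is not reported here. Gapdh, Mup7, Mup9 and the genes set against the rRNA share were chosen after their values were seen. The genes, lists and pairs were chosen with earlier results of these data known. Alternatives were library totals, DESeq2 1.42.0, other CPM minimums, other prior counts, single library sets and leaving out each mouse.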

Additional observations from a re-analysis of the deposited data

Results flagged for a closer look

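In 390 of the 6341 genes tested (6.15%) 1 mouse stood apart from the other 6 by its gap relative to the range. Chance flags about 1 in 20 genes. Mouse 2 was the one apart in 156 of the 390, mouse 3 in 76 and mouse 7 in 55. Of 99 genes named by the rule, 32 had a mouse apart, and the value of that mouse is given here beside the range of the other 6. Many of the 99 were named for a large spread over the same mice, which a mouse apart widens. Their share therefore cannot be read against that of all genes.

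Mouse 2 was high for the lipid genes Fasn (857 CPM against 68.0 to 298), Fdps (238 against 17.6 to 81.5), Acly (163 against 23.4 to 54.9) and Dhcr7 (76.0 against 12.0 to 29.2). It was high for the red cell genes Hba-a2 (1734 against 119.5 to 372), Hba-a1 (908 against 71.5 to 185), Hbb-bs (669 against 64.4 to 229) and Hbb-bt (178 against 16.4 to 42.2). It was also high for H19 (129 against 3.52 to 55.9), Mup20 (2657 against 89.1 to 831), Mup-ps19 (269 against 11.7 to 99.5) and Gstm3 (311 against 29.0 to 58.7). The same held for Ly6d (175 against 16.8 to 75.9), Aqp8 (214 against 27.0 to 63.0), Hcn3 (54.7 against 5.86 to 26.5), Cd74 (845 against 333 to 499.5), Col1a1 (151 against 31.6 to 54.4) and Apoa4 (2599 against 690.2 to 1477).

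Mouse 6 was high for Cdk8 (58455 CPM against 14906 to 27354), Mup13 (11348 against 4797 to 7612), Mup19 (9991 against 4003 to 6070), Mup15 (8215 against 3002 to 4467) and Mup11 (3952 against 1203 to 1793). Mouse 7 was high for Sult2a1 (195 against 0.644 to 72.6), Cyp3a41a (1180 against 68.2 to 405) and Cyp3a41b (395 against 22.5 to 108). Mouse 5 was high for Cyp2b9 (169 against 5.32 to 14.8), Cyp2b13 (151 against 10.9 to 17.9), Saa3 (228 against 38.0 to 92.4) and Pck1 (669 against 293 to 438). Mouse 4 was high for Hamp2 (1108 against 126 to 290.0). Mouse 3 was low for Ddt (88.9 against 167 to 208), the gene deleted in the other genotype of the series.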

How the results depend on the processing

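Of 1844 genes that differed between mice (29.1% of those tested), a DESeq2 likelihood ratio test kept 819 (12.9%). Leaving out mice 3 and 7, an alternative chosen after seeing the data, gave 1187 (19.3%). Leaving out 1 mouse gave 1207 to 1881 (19.0 to 29.8% of the genes tested), the lowest without mouse 2. The other alternatives gave 1464 to 2012, but the number of genes tested differed, and the shares ran from 21.7 to 49.7%. A minimum of 50 CPM gave 1464 of 2943 genes (49.7%), and edgeR's expression filter without a CPM minimum gave 2000 of 9227 (21.7%). Fixed pairs that passed by rho numbered 0, against 6 by Pearson's r, 2 with library totals, 1 with DESeq2 size factors, 3 between first and duplicate libraries and 0 to 2 without 1 mouse. Lists with a median rho of 0.5 or more numbered 12, against 7 with library totals and 10 to 14 without 1 mouse. Of the 40 most variable genes, 21 were shared with a ranking by median absolute deviation and 26 to 38 without 1 mouse. Without mouse 2 the SD of log2 CPM fell from 1.28 to 0.83 for Fdps, from 1.21 to 0.48 for Hba-a1 and from 1.13 to 0.37 for Gstm3. That of Cyp2b13 fell from 1.25 to 0.21 without mouse 5. Over the 40 genes and all alternatives, the SD moved by more than its approximate sampling error in 25 cases and by less in 415. Of the 25 most abundant, 18 remained with rRNA and mt- genes kept and 23 to 25 without 1 mouse. Leaving out 9 genes that can hold rRNA or mitochondrial reads, a choice made after seeing the data, kept 20 of the 25. These 9 were Cdk8, Camk1d, Lars2, Mir6236, Jarid2, Gphn and the pseudogenes on chromosome 1.

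Pairs with a rho near 0 changed sign. Fasn and Igfbp1 (0.04) gave -0.18 with library totals, -0.07 with DESeq2 size factors, -0.21 between libraries and -0.26 to 0.49 without 1 mouse. Saa1 and Hp (-0.14) gave 0.01 by Pearson's r, 0.14 with library totals and -0.43 to 0.14 without 1 mouse. Cyp7a1 and Cyp8b1 (0.14) gave -0.13 by Pearson's r, -0.07 between libraries and -0.03 to 0.83 without 1 mouse. Pck1 and Igfbp1 (0.21) gave -0.26 to 0.60 and Mup11 and Cyp2b13 (-0.29) gave -0.71 to 0.14 without 1 mouse. The causes were not tested. Depth limits the genes of low count, as with 1 count of Sult2a1 in mouse 2. No paired analysis was possible because a single genotype was described and no groups were compared.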
